A study of Rattus norvegicus with 20 samples.

Results

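Fetal rat testes exposed in utero to EHO were compared with fetal rat testes exposed to MEHP, at the same nominal oral dose. The comparison used 8 of the 20 arrays of the series, 4 labelled EHO and 4 labelled MEHP, and the 17876 of 41012 non-control probes (43.6%) that were well above background on all 8. Han Wistar dams were gavaged once a day with the compound at 500 mg/kg over gestation days 12 to 19, and the testes of at least 3 male pups of a litter were pooled for each array. The vehicle was corn oil, and the 4 arrays of testes from dams given corn oil alone are quoted below as the background level. MEHP is mono(2-ethylhexyl) phthalate, the monoester metabolite of the plasticizer DEHP. EHO is given only as a code in the labels. Doses were equal by mass and not necessarily by mole, and this was the only pair of compounds compared here.

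The fetal testis contains Leydig cells, which make androgen, beside Sertoli cells, germ cells (gonocytes), peritubular muscle-like cells, interstitial cells, vessels and blood. Fetal Leydig cells take up or synthesise cholesterol, move it into mitochondria through the StAR protein, and convert it to testosterone with Cyp11a1, the 3-beta-hydroxysteroid dehydrogenases and Cyp17a1. Phthalate monoesters are known in the rat to lower this programme in the fetal testis. Sterol synthesis genes are controlled by SREBP factors, which act together with the CCAAT-binding factor NF-Y.

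Each array carried total RNA in a single Cy3 channel, and levels are given on the log2 scale relative to the 75th percentile of the same array, so a level of 0 equals that percentile. Of all spots, 46.1%, 50.4%, 62.5% and 63.5% were well above background on EHO arrays 1 to 4, against 66.0% to 73.9% on the MEHP arrays and 65.7% to 79.8% on the control arrays. As a result 8305 probes were above background on all MEHP but not all EHO arrays, and 38 the other way round. Those probes are outside the comparison. The 4 arrays of each compound shared 1 slide that held no other group. An effect of the slide and an effect of the compound therefore cannot be told apart. MEHP arrays 1 and 2 differed by 0.838 times the noise between repeated spots of an array, while the other same-group pairs differed by 1.54 to 5.06 times. They were therefore averaged and counted as 1 sample, which left 4 EHO and 3 MEHP samples. The labels describe pools within a litter but number no litters, so p-values measure the spread between these samples. MEHP array 3 stood apart over all probes, at 4.14, 5.04 and 5.06 times spot noise from MEHP arrays 4, 2 and 1, whereas MEHP array 4 was 2.24 and 2.35 times from arrays 1 and 2. Its nearest array was control array 2, at 1.38 times spot noise, and MEHP array 4 was nearest to DEHP array 3, at 1.46 times. Both of these distances to another group are below every same-group distance except that of MEHP arrays 1 and 2. Control array 2 also stood apart from its own group, at 4.18, 4.46 and 4.74 times spot noise from control arrays 4, 1 and 3. Those arrays were 2.07 to 2.19 times from each other, and MEHP array 3 was 4.60, 4.93 and 5.40 times from them. EHO array 3 was nearest to MEHP array 1 (2.39 times spot noise) and EHO array 2 to MEHP array 2 (2.82). EHO array 4 was nearest to control array 4 (2.62) and EHO array 1 to EHO array 2 (3.27). Distances between EHO arrays were 2.97 to 4.29 times. Whether MEHP arrays 3 and 4 and control array 2 hold the testes their labels name was not tested. Every mean over the MEHP arrays and every control range rests on those labels. Medians of the gene lists with more than 1 measured gene are given with and without MEHP array 3.

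Across all 17876 probes the EHO and MEHP testes differed by a median of 0.00983 on the log2 scale (SD over probes 0.315), with 51.3% above 0 and 48.7% below. A moderated test (limma, Benjamini-Hochberg adjustment over all probes) called 2 probes at an adjusted p under 0.05, or 0.0112%, and both rose in EHO relative to MEHP. They read Tlx3, a homeobox transcription factor, and Idi1, the isomerase that makes dimethylallyl diphosphate in the mevalonate route to cholesterol. No probe was lower in EHO at that threshold by limma. At an unadjusted p under 0.05 there were 2234 probes (12.5%), of which 1067 (5.97%) were lower and 1167 (6.53%) higher. EHO was thus higher in 52.2% of these, but in 34.3% when the percentile was taken over the detected probes only and in 99.3% with median scaling, which moved the median of all probes to 0.39. Every EHO array lay above every MEHP array for 1047 probes (5.86%) and below for 810 (4.53%). Without MEHP array 3 these counts were 1527 (8.54%) and 1077 (6.02%). Without that array limma called 0 probes, with 1157 (6.47%) at an unadjusted p under 0.05. Leaving out EHO array 1, EHO array 2, EHO array 3 or MEHP array 4 also left 0 probes called, and leaving out EHO array 4 left Tlx3 alone. When all 5 groups of the series shared 1 estimate of the spread, limma called 127 probes higher in EHO (0.71%) and 64 lower (0.358%), or 1.07% in all, with Idi1 but not Tlx3 (adjusted p = 0.0971) among them. Distances within the DEHP group were 2.18 to 3.03 times spot noise, and within TOTM, another compound of the series, 1.54 to 2.61. Those within EHO were 2.97 to 4.29, and those of MEHP array 3 from its group 4.14 to 5.06. A spread shared by 5 groups can therefore be too small for EHO and MEHP.

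**Figure D1:**
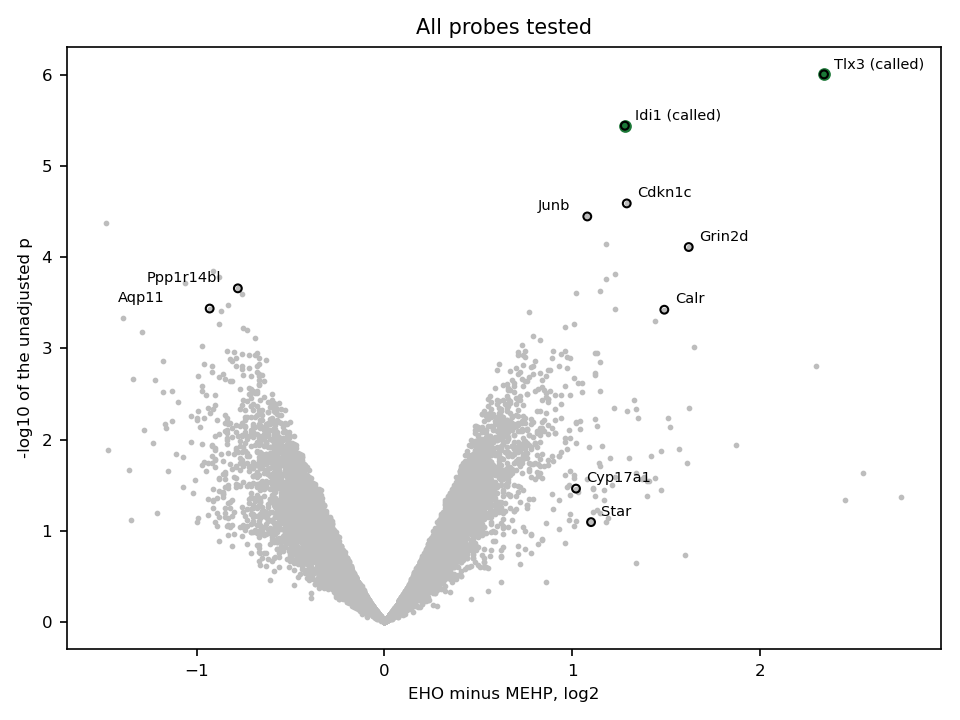
Difference EHO minus MEHP on the log2 scale (horizontal axis) against -log10 of the unadjusted limma p (vertical axis), with 1 point for each of the 17876 probes. The 2 called probes, Tlx3 and the dimmer Idi1 probe, both lie on the side of higher EHO levels; the other labelled probes were not called.

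The Tlx3 probe lies at rn4 chr10:18102533-18102592 in the probe coordinates of the files. Its level was 0.55, 0.52, 0.26 and -0.47 on the 4 EHO arrays and -1.91, -1.87, -2.37 and -2.12 on the 4 MEHP arrays. The lowest EHO array was therefore well above the highest MEHP array. The difference was 2.34 ± 0.25 (SE, 95% interval 1.80 to 2.88; 5.07-fold, limma adjusted p = 0.0175). The control arrays did not form 1 level for this probe, since they read 2.33, -1.79, 1.23 and -1.85 and so spanned more than the difference between the compounds. Levels of Tlx3 on the EHO arrays lay within that range, and those on all 4 MEHP arrays lay below it. Grin2d, an NMDA receptor subunit, also had separated groups and a scattered control: it read 3.29, 3.52, 2.99 and 2.98 with EHO, 2.45, 1.97, 0.92 and 1.57 with MEHP, and 3.40, 1.78, 2.82 and 2.22 in the controls. Its difference of 1.62 ± 0.27 was not called (adjusted p = 0.197), and was called when all 5 groups shared the spread.

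Cholesterol synthesis genes were the metabolic group in which most members were higher in EHO. Of 27 listed genes of sterol synthesis and uptake, all had a probe and 26 passed the background filter. EHO was higher than MEHP in 24 of the 26, with a median difference of 0.38 against 0.00983 over all probes. The median was between 0.27 and 0.76 under every other scaling tried. Without MEHP array 3 EHO was higher in 25 and the median was 0.49. The median deviation from each gene's mean over the samples was 0.33, 0.19, 0.07 and 0.11 on EHO arrays 1 to 4. On MEHP arrays 1 to 4 it was -0.46, -0.41, 0.04 and -0.32. It was thus highest on EHO arrays 1 and 2, which had the fewest spots above background. The part of array quality in this was not tested. None of the 26 was called on its brightest probe. In 4 genes (Idi1, Sqle, Dhcr7 and Mvk) every EHO array exceeded every MEHP array, against 5.86% of all probes. Without MEHP array 3 this held for 17 genes, against 8.54% of all probes.

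In the mevalonate part of the pathway, Idi1 had 2 probes. The called one, the dimmer, lies at rn4 chr17:72560094-72560498, a span of 405 bases. It read 1.69, 1.84, 1.49 and 1.63 on the EHO arrays, 0.39, 0.41, 0.38 and 0.37 on the MEHP arrays, and 1.45, 0.67, 2.00 and 1.57 on the control arrays. The MEHP arrays were nearly identical (SD 0.01), including MEHP array 3. The difference was 1.28 ± 0.15 (95% interval 0.94 to 1.62; 2.43-fold, adjusted p = 0.0321). The brighter probe, at chr17:72557224-72557283, read 4.14, 3.82, 3.53 and 3.68 with EHO and 2.69, 2.72, 3.36 and 2.71 with MEHP. Both probes thus separated the groups, but the difference on the brighter one was 0.87 ± 0.21 (95% interval 0.40 to 1.33) and was not called (adjusted p = 0.336). Its control levels of 3.63, 3.47, 3.93 and 3.92 were close to those of EHO.

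Hmgcs1, the cytosolic HMG-CoA synthase at the entry to the pathway, was divided within the MEHP group. It read 5.72, 5.31, 5.05 and 5.20 with EHO against 4.41, 4.46, 5.79 and 4.65 with MEHP, and 5.62 to 5.98 in the controls. MEHP array 3 lay in the control range and the other 3 MEHP arrays lay below every EHO array. The difference was 0.36 ± 0.30 with MEHP array 3 and 0.78 without it, and neither was called. Mvk, mevalonate kinase, was separated in all arrays but by less, with 1.09, 1.17, 0.95 and 1.13 against 0.71, 0.68, 0.77 and 0.59 (difference 0.40 ± 0.15, adjusted p = 0.349). Mvk was named after its values were seen, as were Dhcr7, Msmo1 and Fdps here. Fdps, the farnesyl diphosphate synthase, differed by 0.50 ± 0.21, with 1 MEHP array, array 3, inside the EHO range, and by 0.39 ± 0.23 on a second probe.

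Among the enzymes from squalene to cholesterol, squalene epoxidase (Sqle) read 2.71, 2.35, 2.13 and 1.91 with EHO and 1.38, 1.50, 1.88 and 1.48 with MEHP. The groups did not overlap, and the control arrays (1.95 to 2.30) lay with EHO. The difference was 0.68 ± 0.21 (95% interval 0.22 to 1.14, adjusted p = 0.336). Dhcr7, which catalyses the last reduction to cholesterol, read 2.50, 2.55, 2.52 and 2.43 with EHO and 1.71, 1.76, 2.01 and 2.14 with MEHP, a difference of 0.54 ± 0.16 that was not called. In the 14-alpha-demethylase Cyp51, MEHP array 3 again lay among the EHO arrays. Its values were 2.67, 2.19, 2.01 and 1.98 with EHO, 1.08, 1.08, 2.18 and 0.89 with MEHP and 2.23 to 2.52 in the controls. The sterol reductase Tm7sf2 had MEHP array 3 above all EHO arrays, with 2.64, 2.62, 1.90 and 2.53 against 0.96, 1.03, 2.72 and 1.28, and 2.98 to 3.21 in the controls. The differences were 0.83 ± 0.29 for Cyp51 and 0.76 ± 0.36 for Tm7sf2, or 1.23 and 1.28 without MEHP array 3, and none of these was called. Msmo1, a methylsterol oxidase, differed by 0.66 ± 0.28, also with MEHP array 3 alone of the MEHP arrays in the EHO range. Over the 26 genes the mean level was 1.71 on MEHP array 3, against 1.21, 1.24 and 1.27 on the other MEHP arrays and 1.69 to 1.88 on the EHO arrays.

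**Figure D2:**
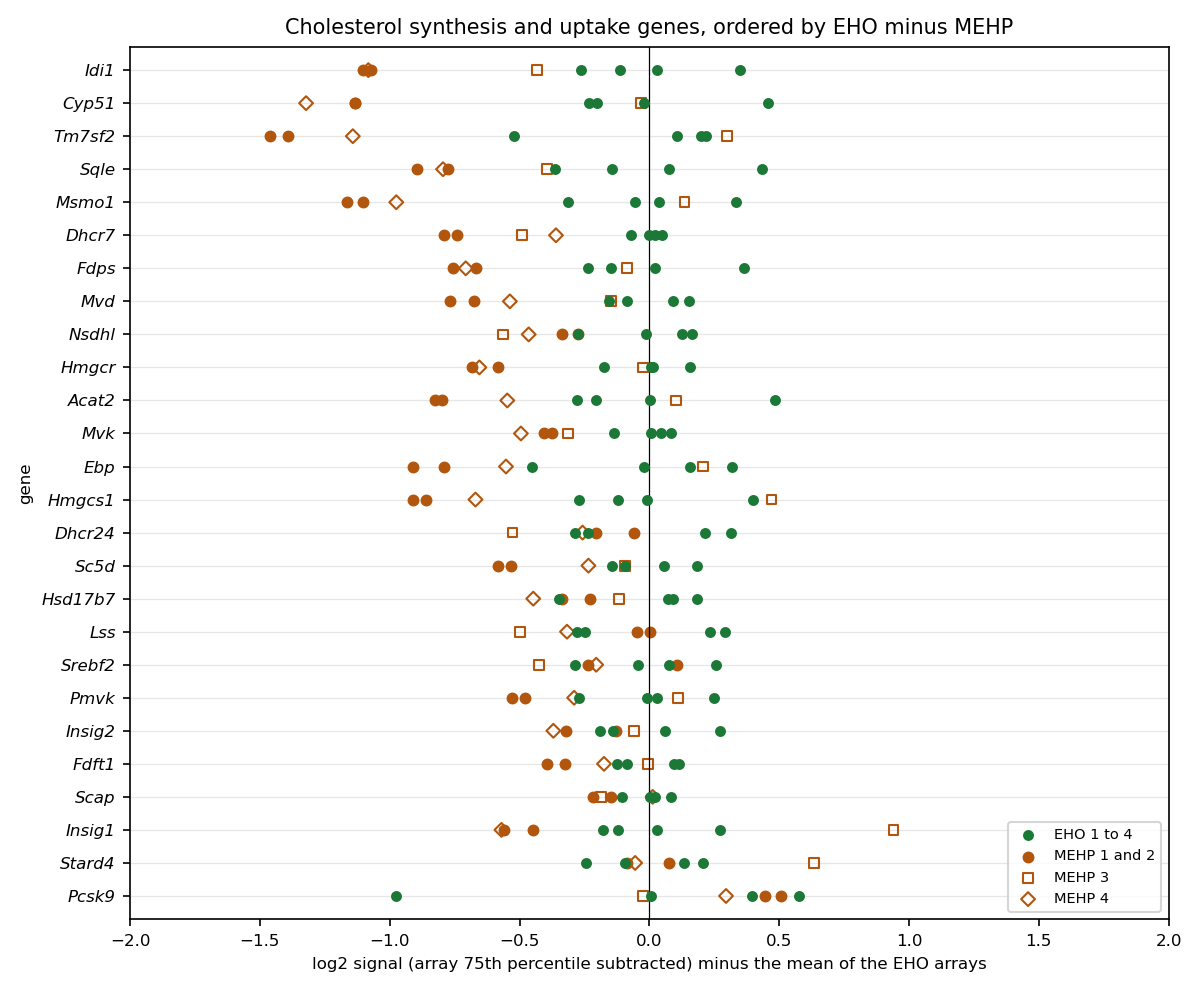
Level of each of the 26 measured sterol genes on each EHO and MEHP array minus the mean of the EHO arrays (horizontal axis, log2 scale), with genes ordered by the difference between the groups. In Idi1, Sqle, Dhcr7 and Mvk all EHO points lie right of all MEHP points, while in Hmgcs1 and Tm7sf2 the square for MEHP array 3 lies right of all EHO points and in Cyp51 among them.

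Promoters of 3 of these genes are shown because sterol genes were mostly higher in EHO and because CCAAT, the box bound by NF-Y, recurs in them. They are the 250 bases upstream of the annotated start, from RefSeq on the GRCr8 build, and capitals mark CCAAT or its reverse complement ATTGG. They lie at chr17:66547525-66547774 (minus strand) for Idi1, chr2:53382054-53382303 (plus strand) for Hmgcs1 and chr2:176804817-176805066 (minus strand) for Fdps.
Idi1: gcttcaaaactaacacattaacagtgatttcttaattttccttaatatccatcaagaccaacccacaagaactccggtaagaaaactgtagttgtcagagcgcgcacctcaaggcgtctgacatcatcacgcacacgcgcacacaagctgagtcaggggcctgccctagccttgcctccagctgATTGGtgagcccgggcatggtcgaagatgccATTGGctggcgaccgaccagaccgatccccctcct
Hmgcs1: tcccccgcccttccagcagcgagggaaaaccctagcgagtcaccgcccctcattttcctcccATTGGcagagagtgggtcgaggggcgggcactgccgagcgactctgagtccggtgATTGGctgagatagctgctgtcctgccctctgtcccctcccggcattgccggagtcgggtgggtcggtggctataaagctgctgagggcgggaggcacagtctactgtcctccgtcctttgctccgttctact
Fdps: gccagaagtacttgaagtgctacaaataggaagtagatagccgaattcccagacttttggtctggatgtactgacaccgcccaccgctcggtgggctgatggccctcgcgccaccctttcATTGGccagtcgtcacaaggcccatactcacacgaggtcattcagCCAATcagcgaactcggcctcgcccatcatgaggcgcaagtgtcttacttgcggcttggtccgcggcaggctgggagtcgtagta
Each of the 3 promoters holds 2 such boxes. On either strand, CCAAT occurred in 15 of the 19 sterol list promoters with an entry (78.9%), against 34.3% of 27457 promoters of the same length. The box occurred in 6 of 10 promoters of fatty acid synthesis genes (60%), 4 of 14 of steroidogenic genes (28.6%) and 0 of 6 of fetal Leydig markers. The other 2 motifs searched, on both strands, were TCACNCCAC, a form of the sterol response element, and CAAGGTCA, a form of the steroidogenic factor 1 site. Neither was found in any of these lists' promoters, and they occurred in 0.976% and 1.3% of all promoters. Motifs this rare would seldom be met in lists of 19, 10, 14 and 6 promoters, so nothing is concluded from their absence. These matches describe letters in this window, and no binding was measured.

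In Star, Cyp11a1, Fdx1, Cyp17a1, Hsd3b1 and Scarb1 the EHO arrays were well above MEHP arrays 1 and 2, but not all were above MEHP array 3. Por and the brighter Hsd3b2 probe did not follow that order, while the dimmer Hsd3b2 probe did. Of 21 listed genes of cholesterol trafficking and steroid synthesis, 20 had a probe and 18 passed the filter; 12 were higher and 6 lower in EHO, with a median difference of 0.17. Without MEHP array 3 the median was 0.28 with 11 higher, and without MEHP arrays 1 and 2 it was 0.01 with 10 higher. None was called. Every EHO array exceeded every MEHP array in 1 of the 18 genes, Por, a share near the 5.86% of all probes, and in 5 without MEHP array 3 (8.54% of all probes). The list's mean level was 2.70 to 2.98 on the EHO arrays and 2.11, 2.15, 3.06 and 2.74 on MEHP arrays 1 to 4.

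Star, which carries cholesterol into the mitochondrion, read 3.12, 2.96, 2.13 and 2.87 on the EHO arrays and -0.06, 0.02, 3.26 and 1.77 on the MEHP arrays. MEHP arrays 1 and 2 were far below every EHO array, MEHP array 4 was lower than all of them and MEHP array 3 was higher than all of them. The control arrays lay at 3.19 to 3.78. The difference was 1.10 ± 0.57 (95% interval -0.16 to 2.35, adjusted p = 0.444), and 1.89 ± 0.43 without MEHP array 3 (adjusted p = 0.58). Scarb1, a lipoprotein receptor that imports cholesterol esters, read 4.90, 4.44, 3.94 and 4.43 with EHO against 2.58, 2.73, 5.93 and 4.23 with MEHP, and 5.13 to 5.80 in the controls. Its difference of 0.15 ± 0.56 rested on MEHP array 3 and was 0.98 without it. A second, dimmer Scarb1 probe read 2.70, 2.92, 2.68 and 2.74 with EHO and 1.26, 1.18, 2.28 and 2.18 with MEHP, so the probes of this gene disagreed on whether the groups overlapped (difference 0.87 ± 0.24, not called).

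The side-chain cleavage enzyme Cyp11a1 read 3.31, 3.59, 3.08 and 3.72 with EHO and 1.13, 1.23, 3.46 and 2.95 with MEHP, against 3.42 to 4.09 in the controls. Its electron donor Fdx1, ferredoxin, read 5.71, 5.32, 4.68 and 5.42 against 3.30, 3.43, 5.86 and 4.50. In both genes MEHP array 3 was within or above the EHO levels and the other MEHP arrays were below all of them. The differences were 0.90 ± 0.42 (95% interval -0.03 to 1.83) and 0.71 ± 0.46 (-0.29 to 1.71), or 1.36 and 1.35 without MEHP array 3, and none was called. Cyp17a1, which makes androgen precursors, read 6.75, 6.54, 5.99 and 6.61 against 4.16, 4.21, 6.50 and 5.68, a difference of 1.02 ± 0.42 (adjusted p = 0.375). Its spots on the control arrays were marked as outliers and have no value. Hsd3b1 read 4.77, 4.73, 4.37 and 5.07 against 3.22, 3.22, 5.51 and 4.94, so that MEHP array 4 also lay among the EHO arrays (difference 0.18 ± 0.42, 95% interval -0.75 to 1.10). Its near-identical copy Hsd3b2 differed by 0.76 ± 0.35 on the brighter probe and 0.23 on the dimmer one. The dimmer probe, named Hsd3b1 in the array's own annotation, read 3.65, 3.59, 3.21 and 3.88 with EHO. With MEHP it read 1.97, 2.09, 4.25 and 3.75, and cross-hybridisation between the copies was not tested. Por, the reductase that supplies electrons to Cyp17a1, was named after its values were seen. It read 2.80, 2.95, 3.03 and 2.92 with EHO and 2.28, 2.35, 1.81 and 2.66 with MEHP, a difference of 0.67 ± 0.20 (adjusted p = 0.336).

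Among the 6 genes lower in EHO, Soat1, which stores cholesterol as ester, differed by -0.46 ± 0.23, and Stard3, an endosomal cholesterol transporter, by -0.44 ± 0.20, though a second Stard3 probe was at 0.18 ± 0.25. Both were named after their values were seen, their groups overlapped and neither was called. Of 8 listed LH receptor and steroidogenic regulators, 6 passed, 3 higher and 3 lower, with a median of 0.14 (0.20 with 4 higher without MEHP array 3) and none called. Every EHO array exceeded every MEHP array for Creb3l1, a transcription factor (1.03 to 1.48 against 0.76 to 1.02), and for Gata4, a gonadal factor of Leydig and Sertoli cells (3.35 to 3.42 against 2.86 to 3.32). They were 2 of the 6, against 5.86% of all probes. Nr5a1, steroidogenic factor 1, read -1.52, -1.11, -1.23 and -1.16 with EHO and -1.59, -1.64, -2.34 and -1.48 with MEHP, a difference of 0.56 ± 0.22 that was not called. Lhcgr, the LH receptor, did not pass: it was above background on 1 EHO and 2 MEHP arrays.

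Markers of the fetal Leydig cell were described as a group. Of 10 markers 9 passed, 8 were higher in EHO, and none was called or had separated groups. The median difference was 0.31, but 0.65 without MEHP array 3 and 1.51 without MEHP arrays 3 and 4, and it was -0.12 against MEHP arrays 3 and 4 only. The mean level of the 9 markers ran from 3.02 to 3.50 on the EHO arrays and was 1.84, 1.89, 3.66 and 3.01 on MEHP arrays 1 to 4. Insl3, the Leydig hormone of testis descent, was nearly flat across EHO (5.54, 5.58, 5.61 and 5.61) and read 3.49, 3.57, 6.00 and 5.60 with MEHP. The 2 control arrays with a value read 5.59 and 5.58. Its difference was 0.54 ± 0.45 (95% interval -0.44 to 1.52). In these whole testes, fewer Leydig cells and less RNA per cell cannot be told apart.

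In 3 of 13 fatty acid synthesis genes every EHO array was above every MEHP array, against 5.86% of all probes. Of 16 genes 13 passed, 9 higher and 4 lower, with a median of 0.16 (0.17 with 10 higher without MEHP array 3) and none called. Elovl6, an elongase, read 2.57, 2.05, 2.11 and 1.86 with EHO and 1.44, 1.44, 1.71 and 1.37 with MEHP (difference 0.64 ± 0.19, adjusted p = 0.336), with controls at 1.58 to 2.01. The desaturase Fads1 read 1.59, 1.51, 1.41 and 1.31 against 0.99, 1.05, 0.93 and 0.96, with controls at 1.23 to 1.77. Fads2 read -1.18, -1.35, -1.33 and -1.19 against -2.07, -2.02, -1.37 and -1.74. EHO levels lay within or above the control range for Elovl6 and within it for Fads1. Scd, the stearoyl-CoA desaturase, was narrow with EHO (-1.42 to -1.32) and wide with MEHP (-2.09, -2.27, -1.42 and -2.52), a difference of 0.67 ± 0.23 that was not called. Its EHO levels lay below those of all 4 control arrays (-0.99 to -0.70).

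Of 24 fatty acid oxidation and PPAR alpha target genes with a probe, 19 passed, 6 higher and 13 lower in EHO, with no gene separated and none called. Their median was -0.06 and turned to 0.32 with median scaling. This balance rested on MEHP array 3: without it 11 of 19 were higher and the median was 0.06, and without MEHP arrays 3 and 4 15 were higher and the median was 0.15. Cpt1b, which admits fatty acids to mitochondria, read 1.29, 1.87, 1.47 and 1.87 with EHO and 1.84, 1.96, 2.71 and 2.21 with MEHP (difference -0.65 ± 0.23). Pex11a, a peroxisome division protein, differed by -0.55 ± 0.24, with low values on EHO arrays 1 and 2 (-1.97 and -1.69), and by -0.05 ± 0.15 on a second probe. In the list of oxidative stress and xenobiotic response, 18 of 24 passed, 11 higher and 7 lower, with a median of 0.13, unchanged in value and count without MEHP array 3, and no gene separated. Gsta2, a glutathione transferase, had the widest range: 0.48, 0.08, -0.42 and 0.78 with EHO, -1.88, -2.10, 1.21 and -1.42 with MEHP, and 1.28 to 2.10 in the controls. All EHO arrays were below all control arrays for Gsta2, and the difference from MEHP was 0.96 ± 0.60, or 1.93 without MEHP array 3, neither called.

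Genes of the endoplasmic reticulum stress list were higher in EHO in 14 of 17 passing members, with a median of 0.31 (0.32 with 16 higher without MEHP array 3) and none called. Every EHO array was above every MEHP array in 3 of the 17, against 5.86% of all probes. Calr, the calcium-binding chaperone calreticulin, read 4.34, 3.74, 3.22 and 3.29 with EHO, 2.63, 2.70, 1.62 and 2.18 with MEHP and 2.16, 1.68, 2.73 and 2.45 in the controls. All EHO arrays were above all arrays of both other groups. The difference was 1.49 ± 0.30 (95% interval 0.83 to 2.14, 2.81-fold, adjusted p = 0.327). Pdia3, the disulfide isomerase that works with calreticulin, read 3.40, 2.95, 3.06 and 2.76 against 2.55, 2.62, 2.23 and 2.37, with controls at 2.31 to 2.72 (difference 0.65 ± 0.19). Ddit3, the CHOP factor, was named after its values were seen, with 0.39 ± 0.15. The 3 lower members, also named after their values were seen, were Canx at -0.44, Pdia4 at -0.18 and Asns at -0.06. Without MEHP array 3 these were 0.04, 0.14 and -0.18. Hspa5 (BiP), the usual marker of the response, overlapped: it read 6.20, 5.67, 5.23 and 5.0 with EHO and 5.01 to 5.20 with MEHP (difference 0.45 ± 0.25, adjusted p = 0.464). EHO arrays 1 and 2, which had the fewest spots above background, were also highest for Calr and Hspa5. Without them the median of the list was 0.03, and the part of array quality in this group was not tested.

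Among 17 passing immediate early genes, 12 were higher and 5 lower, with a median of 0.11 (0.10 with 11 higher without MEHP array 3), and of these Junb alone was separated. That share, 1 of 17, was near the 5.86% of all probes. Junb, an AP-1 subunit, read -0.87, -0.63, -1.02 and -0.84 with EHO and -1.86, -1.95, -2.08 and -1.76 with MEHP, with controls at -1.78 to -1.06. Its difference of 1.08 ± 0.16 (95% interval 0.71 to 1.44) had a small spread, but its adjusted p of 0.15 missed the threshold. When all 5 groups shared the spread, Junb, Calr, Pdia3, Elovl6, Smad6 and the brighter Idi1 probe were called, as were Ddx6, Gabrq and Grin2d. None of these was called in the fit of the EHO and MEHP arrays alone. Cebpb, a bZIP factor, differed by 0.47 ± 0.21, and Klf4, 1 of the 5 lower genes, by -0.49 ± 0.25, both with overlap.

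All 29 cell cycle genes passed, 22 higher and 7 lower in EHO, with a median of 0.13 (0.10 with 20 higher without MEHP array 3). The inhibitor Cdkn1c, a growth-restraining p57 protein, read 7.63, 7.04, 6.83 and 6.92 with EHO and 5.77, 5.87, 7.21 and 6.05 with MEHP on its brightest probe. MEHP array 3 was again the exception. The difference was 0.74 ± 0.31 there and 1.18, 1.29 and 0.97 on the other 3 probes, each of which separated the groups and none of which was called. Cyclin D2 (Ccnd2) and Cdk2, which drive the G1 to S step, were separated by a smaller margin, at 0.32 ± 0.16 and 0.31 ± 0.16, and were named after their values were seen. On the brightest probe they were the only 2 of the 29 genes separated, a share near the 5.86% of all probes. A second Cdk2 probe overlapped, at -0.08 ± 0.19.

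Extracellular matrix genes were higher in EHO in 20 of 21 passing members (21 of 22 had a probe). The median was 0.37, and without MEHP array 3 it was 0.29 with 16 higher. None was called, and 6 of the 21 separated with or without MEHP array 3, against 5.86% and 8.54% of all probes. Col5a1, a fibrillar collagen, read 4.09, 4.09, 3.91 and 4.04 with EHO and 3.75, 3.79, 2.50 and 3.55 with MEHP (difference 0.76 ± 0.26, adjusted p = 0.338), and 0.37 without MEHP array 3. Fbn1, the microfibril protein fibrillin 1, read 5.83, 4.89, 5.01 and 5.42 against 4.71, 4.79, 4.44 and 4.60, with controls at 3.85 to 4.70. Mmp2, a gelatinase, read 4.60, 4.29, 4.33 and 4.41 against 3.90, 3.97, 3.45 and 3.96. Both probes were above all control arrays with EHO. A second Mmp2 probe also separated the groups (0.66 ± 0.18), but a second, dimmer Fbn1 probe overlapped both MEHP and the controls (0.20 ± 0.23). For Nid1, a basement membrane linker, MEHP arrays 1 and 2 (2.95 and 3.01) were level with EHO (2.73 to 3.05), while MEHP arrays 3 and 4 read 1.31 and 1.87. The difference of 0.87 ± 0.31 was 0.50 without array 3 and turned to -0.05 without arrays 3 and 4, and a second Nid1 probe was at 0.20 ± 0.23. Without MEHP arrays 3 and 4 the median of the list was 0.18, and without EHO arrays 1 and 2 it was 0.24.

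**Figure D3:**
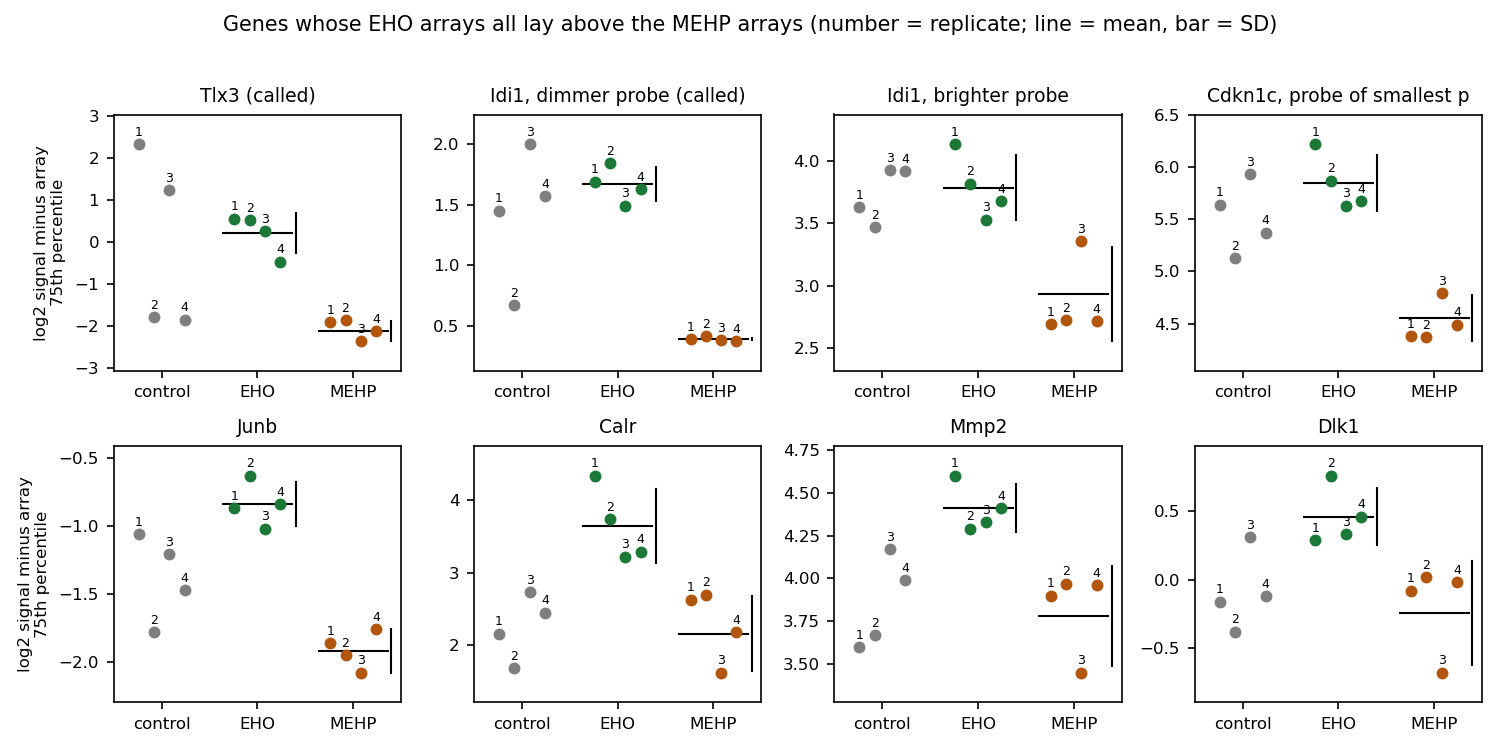
Level (vertical axis, log2 relative to the array's 75th percentile) of 8 probes on each control, EHO and MEHP array, chosen because all EHO arrays lay above all MEHP arrays; the line is the mean and the bar the SD, over 4 EHO and 3 MEHP samples. For Calr, Junb and Mmp2 all EHO points lie above the control points too, while the Tlx3 controls fall on both sides of the EHO points.

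Markers of peritubular and interstitial cells were higher in 14 of 16 members, all of which passed, with a median of 0.39 (0.29 with 14 higher without MEHP array 3) and none called. Every EHO array was above every MEHP array in 3 of the 16, against 5.86% of all probes. Nr2f2 (COUP-TFII), an interstitial progenitor factor, read 3.77, 2.85, 2.99 and 2.87 with EHO and 2.32, 2.42, 2.67 and 2.31 with MEHP (difference 0.67 ± 0.23, adjusted p = 0.338). The control arrays read 2.44, 2.86, 2.64 and 2.50, so 3 EHO arrays were close to the highest of them. Dlk1, a marker of stromal progenitors, read 0.29, 0.76, 0.33 and 0.46 against -0.08, 0.02, -0.68 and -0.02, and Tcf21, a mesenchymal factor named after its values were seen, differed by 0.44 ± 0.18. Lum, the proteoglycan lumican, did not separate the groups because EHO array 3 read -1.64 among the MEHP levels (-1.35 to -1.16). The mean of the 16 markers was 2.02 to 2.59 with EHO, highest on EHO array 1, and 1.98 to 2.04 with MEHP. Of 13 endothelial markers 10 passed, 7 higher, with a median of 0.16 (0.05 with 6 higher without MEHP array 3), and Emcn and Eng were separated at 0.66 ± 0.20 and 0.63 ± 0.25. They were 2 of the 10, against 5.86% of all probes. The 3 lower markers included Sox17 at -0.33 ± 0.23 and Egfl7 at -0.31 ± 0.20, both with overlap.

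Sertoli cell markers were higher in 6 and lower in 10 of 16 passing members, with a median of -0.04 that turned to 0.34 with median scaling and was -0.14, with 5 higher, without MEHP array 3. Amh, the hormone that regresses the Müllerian duct, read 5.49, 6.03, 5.75 and 5.84 with EHO and 6.05, 6.15, 5.28 and 6.09 with MEHP, a difference of -0.05 ± 0.23 (95% interval -0.54 to 0.45) that turned to 0.34 with median scaling. Sox9, the Sertoli fate factor, read -2.19, -1.94, -1.03 and -0.94 against -0.93, -1.06, -1.63 and -1.47, so its 2 lowest values were EHO arrays 1 and 2. Its difference of -0.16 ± 0.31 turned to 0.22 with median scaling and 0.12 with quantile normalisation. Gdnf, a niche signal to germ cells, read 4.89, 5.70, 5.40 and 5.07 against 5.19, 5.20, 1.81 and 4.58. The low array for Gdnf was MEHP array 3, and control array 2 read 1.88 beside 4.01, 4.89 and 4.0 on the other controls. The difference of 1.40 ± 0.61 was 0.38 without MEHP array 3, neither called. Dhh, the Sertoli hedgehog ligand, differed by -0.56 ± 0.19 on its brighter probe and 0.08 ± 0.19 on the other, so the sign is not settled. The cell cycle inhibitor Cdkn1b differed by 0.70 ± 0.30 with overlap, and by 0.76 ± 0.24 on a second probe that separated the groups.

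Gonocyte markers were lower in EHO in 10 of 14 passing members, with a median of -0.13 that turned to 0.25 with median scaling, none called and none separated on the brightest probe. Without MEHP array 3 the median was -0.30 with 1 higher, and without MEHP arrays 1 and 2 it was 0.04 with 8 higher. Ddx4 (VASA), the germ cell RNA helicase, read 2.46, 2.59, 2.62 and 2.05 with EHO and 2.74, 2.79, 2.41 and 2.34 with MEHP (difference -0.08 ± 0.19, or 0.31 with median scaling). Piwil4, which loads piRNAs in fetal germ cells, read -0.03, 0.34, 0.15 and 0.76 against 0.57, 0.61, 1.22 and 0.81, with -0.57 ± 0.22. Piwil2 differed by -0.46 ± 0.18 with overlap, and by -0.90 ± 0.24 on a dimmer probe that separated the groups, neither called. Tex101, 1 of the 4 higher members, differed by 0.42 ± 0.20 with overlap, and by 0.28 without MEHP array 3. Piwil2, Tex101, Sox17, Egfl7, Canx, Pdia4, Asns and Klf4 are not in the counts of named genes given below. Dnmt3l, a cofactor of DNA methylation, split the EHO arrays: arrays 1 and 3 read -1.60 and -1.97, and arrays 2 and 4 read 0.35 and 0.34, while MEHP lay between -0.23 and 0.08.

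Of the retinoid genes, 12 of 18 passed, 8 higher and 4 lower (median 0.13, but 0.02 with 6 higher without MEHP array 3, and -0.04 without MEHP arrays 3 and 4). Dhrs3, a retinaldehyde reductase, was separated upward at 0.50 ± 0.18, and the plasma retinol carrier Rbp4 downward at -0.41 ± 0.17. In all, 2 of the 12 were separated upward and 1 downward, against 5.86% and 4.53% of all probes. Aldh1a2, which makes retinoic acid, overlapped, with 1.19, 0.61, 0.53 and 0.64 against 0.36, 0.78, 1.23 and 0.54 (difference -0.04 ± 0.22, or 0.34 with median scaling). Of 16 passing Wnt and hedgehog genes 13 were higher (median 0.29, or 0.22 with 14 higher without MEHP array 3) and none separated. Wnt11, a secreted ligand, read 3.78 to 4.29 with EHO and 3.92, 4.04, 1.81 and 3.45 with MEHP, and its difference of 0.97 ± 0.40 was 0.33 without MEHP array 3. Of 17 passing TGF beta, inhibin and BMP genes, 13 were higher (median 0.22, or 0.25 with 12 higher without MEHP array 3). Smad6, an inhibitory Smad, read 0.24, 0.23, 0.42 and 0.20 against -0.02, 0.03, -0.80 and -0.50, and Inhba, the activin A subunit, read 0.80, 0.70, 0.40 and 0.68 against -0.22, -0.14, 0.34 and 0.28. Both were separated, at 0.70 ± 0.20 and 0.50 ± 0.18, and not called. They were 2 of the 17, against 5.86% of all probes. Id2, a BMP-responsive inhibitor, differed by 0.66 ± 0.25 with overlap, by 0.86 ± 0.23 on a probe that separated the groups and by 0.40 ± 0.23 on the third.

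Red cell genes varied between arrays of both groups. Of 8 with a probe 7 passed and 5 were higher, with a median of 0.45 (0.49 with 6 higher without MEHP array 3). The mean of the 7 was 2.20, 3.15, 2.65 and 2.01 on EHO arrays 1 to 4 and 1.31, 1.32, 2.15 and 2.69 on MEHP arrays 1 to 4. Hbe1, an embryonic globin, read 4.25, 4.93, 5.26 and 3.32 with EHO and 2.73, 2.75, 3.11 and 4.03 with MEHP, and the adult-type Hbb differed by 0.76 ± 0.35 and the band 3 anion exchanger Slc4a1 by 0.82 ± 0.32. MEHP arrays 1 and 2, lowest in the Leydig markers, were also lowest here. The part of blood content in the other differences was not tested. Macrophage markers gave 7 higher of 12 and a median of 0.06 (0.08 without MEHP array 3). Mesonephric duct markers gave 2 higher of 7 and a median of -0.13 (0.25 with median scaling, and the same as reported without MEHP array 3). The keratin Krt19 was at 0.52 ± 0.20, and the homeobox gene Emx2 was at 0.57 ± 0.25 on 1 probe and -0.04 ± 0.27 on the other. The brighter probe of Krt18, a keratin also made in other testis cells, was lower on every EHO array, at -0.50 ± 0.19, while its second probe overlapped, at -0.29 ± 0.18. Only 1 of 6 adrenal markers passed the filter. Ribosomal protein genes had a median of 0.06 (16 of 22 higher) and respiratory chain genes 0.05 (13 of 20 higher), near that of all probes. Both medians were just below 0 when the percentile was taken over detected probes, at -0.01 and -0.02, and without MEHP array 3 they were 0.10 and 0.11.

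**Figure D4:**
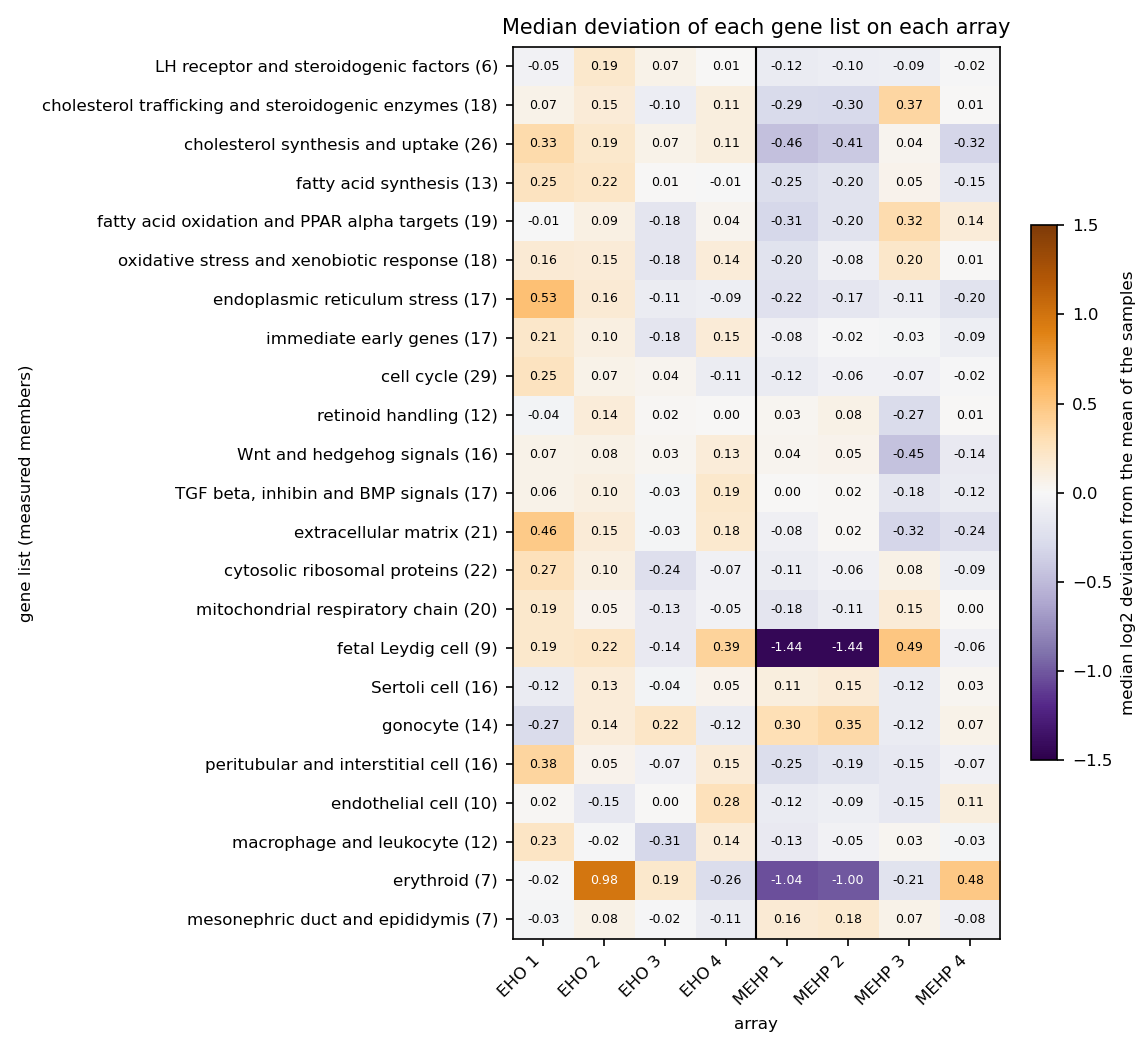
For each gene list (vertical axis, with its number of measured genes), the median over genes of the deviation from the gene's mean over the samples (colour, log2 scale) on each EHO and MEHP array. Fetal Leydig markers are at -1.44 on MEHP arrays 1 and 2, 0.49 on MEHP array 3 and -0.06 on MEHP array 4.

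Of the genes with the smallest p in each direction, those higher in EHO included the RNA helicase Ddx6 (3.22, 2.67, 2.90 and 2.92 against 2.20, 2.26, 1.43 and 1.56; difference 1.18 ± 0.22) and Gabrq, a GABA receptor subunit (1.36, 1.43, 1.20 and 1.15 against 0.47, 0.61, -0.42 and 0.27; 1.15 ± 0.22). Neither was called (adjusted p = 0.278 and 0.285). Rsrp1, a serine and arginine rich protein, was placed here by a probe that separated the groups (2.49, 2.89, 2.07 and 2.77 against 1.23, 1.23, 1.11 and 1.65; 1.23 ± 0.22, adjusted p = 0.278), while its brightest probe overlapped at 0.39 ± 0.19. Among those lower in EHO was Aqp11, an intracellular aquaporin, which read -0.57, -0.71, -0.68 and -0.18 with EHO, 0.12, 0.17, 0.57 and 0.47 with MEHP and 0.05 to 0.54 in the controls. All EHO arrays were below all arrays of both other groups for Aqp11 (difference -0.93 ± 0.19, adjusted p = 0.327). The PP1 inhibitor-like gene Ppp1r14bl had the least spread, with -1.41, -1.60, -1.46 and -1.52 against -0.74, -0.63, -0.76 and -0.70 and controls at -2.47 to -1.97 (difference -0.78 ± 0.15, adjusted p = 0.285). Here it was the EHO arrays that were nearer the controls. Cilp, a cartilage matrix protein, differed by -0.75 ± 0.16 and Or8b59, an olfactory receptor, by -0.73 ± 0.16, both with separated groups, although a second, dimmer Cilp probe overlapped at -0.44 ± 0.25. Or8b59 read -2.69 to -2.32 on the EHO arrays, close to the lowest signals counted as above background there. The ribosomal pseudogenes Rpl23a-ps6 and Rpl29-ps23 differed by -1.39 ± 0.29 and -1.18 ± 0.28. A probe's signal from such copies cannot be told from that of the parent genes. Cts7l2, a cathepsin-like gene, differed by -1.29 ± 0.28 with overlap. Hspa4l, a heat shock protein of the Hsp110 family, separated the groups on the probe with the smallest p (-2.15, -1.73, -2.30 and -2.03 against -1.24, -1.29, -1.05 and -1.23; -0.87 ± 0.18, adjusted p = 0.327) and overlapped on its brightest probe (-0.51 ± 0.22). In the fit of all 5 groups, Aqp11, Ppp1r14bl, Or8b59, Cts7l2 and Rpl23a-ps6 were called.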

How the data were processed

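Fetal testis RNA was labelled with Cy3 and hybridised to 1-colour Agilent arrays. The authors deposited 1 scanner table for each array, with a background-subtracted processed signal intensity for each spot made with Agilent Feature Extraction 9.5, per the submitters' processing notes. Probe coordinates in the files are on rn4. Here outlier spots were left out, spots of a probe were averaged, and the log2 intensity was reduced by the array's 75th percentile. Probes had to be well above background on all 8 arrays with values on at least 3 arrays of each group. EHO and MEHP arrays were fitted with limma 3.58.1 in R 4.3.3 (residual df 5, prior df 6.38), without a replicate term. Intervals are 95%. A gene with several probes is given by its brightest. Probe names were updated through RefSeq accessions and symbols, and 11155 of the 17876 probes carried 1 of 8925 symbols. The 24 gene lists (438 genes), the comparison and the genes named were chosen with earlier results of these data known. Named genes were a fixed set, the 8 with the smallest p in each direction and up to 4 with the largest difference in each list, unless said otherwise. The script was tested on simulated data. Alternatives changed the scaling, background correction, filter, samples in the fit, averaging, weights and outlier rule. The number of arrays limits the precision. Other groups' comparisons were not analysed here.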

Additional observations from a re-analysis of the deposited data

Results flagged for a closer look

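In 5 of 85 named genes and probes, 1 EHO array stood far from the other 3 by Dixon's criterion, which chance meets in about 1 of 20 groups. Aldh1a2 read 1.19 on EHO array 1 against 0.53 to 0.64 on the others. Nr2f2 read 3.77 on EHO array 1 against 2.85 to 2.99. Cebpb read -0.96 on EHO array 3 against -0.25 to -0.18. Smad6 read 0.42 on EHO array 3 against 0.20 to 0.24. Tm7sf2 read 1.90 on EHO array 3 against 2.53 to 2.64. The MEHP group, with 3 samples, was not screened this way.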

How the results depend on the processing

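Besides the settings given with the results, limma called 1 probe with median scaling (99.3% of probes at an unadjusted p under 0.05 were higher in EHO), 4 with MEHP arrays 1 and 2 as separate samples, 191 with all 5 groups in the fit, 620 with array weights, 5 without MEHP arrays 1 and 2, and 0 without MEHP arrays 3 and 4, without EHO arrays 1 and 2, without the background filter (7522 at an unadjusted p under 0.05, 62.9% higher) or with probes above background in either group (2125, 37.5% higher). The array weights were 7.22 for MEHP array 4, 0.292 for MEHP array 3 and 1.06 for the average of MEHP arrays 1 and 2. The weighted MEHP mean thus rested mostly on MEHP array 4, the array nearest to DEHP array 3. At an unadjusted p under 0.05 there were 341 probes without MEHP arrays 3 and 4 and 1543 without EHO arrays 1 and 2. Leaving out 1 array at a time gave 0 to 2 calls. Over 24 settings other than the one reported, Tlx3 was called in 14, the dimmer Idi1 probe in 11 and neither in 9. The cause of these changes was not tested, beyond the smaller number of samples where arrays were left out.

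Equal replicate numbers did not deviate together (correlations -0.31, 0.20, -0.29 and 0.09, with the own number highest for replicates 2 and 4), so the numbers were not taken to pair the samples. With a replicate block and MEHP arrays 1 and 2 separate, limma called 1 probe, and Aldh1a2 was at 0.01, as it was with those arrays separate and no block.

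Of 1955 differences of the 85 named genes and probes under 23 settings, 1856 kept their sign and side of the threshold, 47 were called only there, 23 lost their call and 29 changed sign. With median scaling the signs of Aldh1a2 (0.34), Amh (0.34), Ddx4 (0.31) and Sox9 (0.22) changed, as did that of Sox9 with quantile normalisation (0.12). Array weights gave 0.10 for Aldh1a2 and 0.02 for Ddx4. Without MEHP arrays 3 and 4 Aldh1a2 was at 0.17, Hsd3b2 at 0.00 and Nid1 at -0.05. Without MEHP arrays 1 and 2 Amh was at 0.09, Ddx4 at 0.05, Sox9 at 0.03, Hsd3b1 at -0.49, Insl3 at -0.22 and Scarb1 at -0.65. Without EHO arrays 1 and 2 Scarb1 was at -0.09 and Sox9 at 0.38. Leaving out 1 array at a time moved Aldh1a2 from -0.19 to 0.19, Amh from -0.32 to 0.09, Ddx4 from -0.16 to 0.05, Scarb1 from 0.00 to 0.98 and Sox9 from -0.35 to 0.06. The cause was not tested. Signal limited the comparison to probes above background on the dimmest EHO arrays: 671 probes were above background on all MEHP arrays and on no EHO array.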
